A study of Mus musculus with 37 samples.

Results

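Hearts of mouse embryos that lack 1 working allele of both Nipbl and Isl1 (labelled Nipbl +/-; Isl1 +/-, here double heterozygous, 9 libraries) were compared with hearts that lack 1 working allele of Isl1 alone (labelled Isl1 +/-, here Isl1 heterozygous, 9 libraries). The comparison asks what losing a Nipbl allele changes when Isl1 is already heterozygous. These 18 of the 37 libraries of the study were chosen by their titles, and every library is bulk paired-end RNA sequencing of a heart dissected at stage E10.5. Wild-type hearts (Nipbl +/+; Isl1 +/+, 10 libraries) and hearts heterozygous for Nipbl alone (Nipbl +/-, 9 libraries) entered the same fit and so also shaped its estimate of the spread. Their own changes are used below only to compare both Isl1 backgrounds.

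All embryos had fathers that carried Stra8-iCre and a floxed Nipbl allele, whose sperm brought either Nipbl Flox, described as a working allele, or Nipbl FIN, a null allele. Their mothers were Isl1 Cre/+. The Isl1 heterozygous and the double heterozygous embryos therefore share the Cre inserted in 1 Isl1 allele, and only the double heterozygous ones carry the null Nipbl allele. Whether the Cre of the Isl1 allele recombines a Nipbl Flox allele in part of an Isl1 heterozygous heart is not given in the sources used here. The null allele came with the sperm, so every cell of a double heterozygous embryo carries it and the cell type in which it acts cannot be told from these hearts. The labels do not say how litters were distributed over the libraries, and p-values measure the spread between these embryos.

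NIPBL is the factor that, with its partner MAU2, loads the cohesin ring onto chromosomes, where cohesin extrudes loops and holds sister chromatids together. Loss of a single NIPBL allele causes Cornelia de Lange syndrome in people, in which heart defects are frequent, and mice with a single working allele have heart defects too. ISL1 is a LIM-homeodomain transcription factor of second heart field progenitors, which add the outflow tract, the right ventricle and part of the atria to the heart tube.

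A number after the letters IVF in each library's description label was used as a set term, although the labels do not say what the set is. The Isl1 heterozygous libraries fell into set 1 (3 libraries), set 2 (2), set 5 (3) and set 6 (1), and the double heterozygous ones into set 2 (2), set 5 (5), set 6 (1) and set 7 (1). The single library of set 7 is fitted exactly by its own set term, so fitted changes rest on 8 double heterozygous libraries, while levels and ranges are over all 9. Depth ran from 28.0 to 51.0 mega-counts (M) per library over both groups, with means of 37.1 ± 5.50 M (SD, n = 9) in Isl1 heterozygous and 34.7 ± 5.14 M (SD, n = 9) in double heterozygous hearts. On the first principal component of the 18 libraries (24.3% of the variance), double heterozygous replicate 8 stood apart at −59.8, with the next lowest library at −26.7. The same library had the highest summed level of 14 red blood cell genes, 54444 CPM (counts per mega-count, scaled by TMM). These sums spanned 856 to 48867 CPM in Isl1 heterozygous and 1359 to 54444 CPM in double heterozygous hearts.

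The promoters of 4 leading genes are shown first, since genes that rose and genes that fell had different CG content there (described further on). They are the first 2 of the named genes in each direction, by p-value, for which the RefSeq promoter table (GRCm38.p6) held a sequence, passing over the zinc-finger gene Zfp979. Each is 300 bases, 250 before and 50 after an annotated start, read 5′ to 3′ on the gene's strand. Capitals mark matches to a TATA box (TATAAA), a GC box (GGGCGG) or a CArG box, on either strand.
Slitrk5, lower, chr14:111675777-111676076, plus strand: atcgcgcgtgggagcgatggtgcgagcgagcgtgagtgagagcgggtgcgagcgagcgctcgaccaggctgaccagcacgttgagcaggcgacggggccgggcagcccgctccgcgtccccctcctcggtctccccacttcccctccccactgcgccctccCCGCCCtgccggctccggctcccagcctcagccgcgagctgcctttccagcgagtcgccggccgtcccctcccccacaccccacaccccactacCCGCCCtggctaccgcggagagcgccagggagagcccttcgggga
Lrrc4b, lower, chr7:44442237-44442536, plus strand: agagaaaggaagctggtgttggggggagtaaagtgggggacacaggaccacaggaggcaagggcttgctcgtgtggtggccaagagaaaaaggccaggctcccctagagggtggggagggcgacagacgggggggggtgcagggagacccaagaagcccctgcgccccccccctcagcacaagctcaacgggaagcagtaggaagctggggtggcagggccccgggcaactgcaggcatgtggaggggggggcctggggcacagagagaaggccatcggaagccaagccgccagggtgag
Trim72, higher, chr7:128004128-128004427, plus strand: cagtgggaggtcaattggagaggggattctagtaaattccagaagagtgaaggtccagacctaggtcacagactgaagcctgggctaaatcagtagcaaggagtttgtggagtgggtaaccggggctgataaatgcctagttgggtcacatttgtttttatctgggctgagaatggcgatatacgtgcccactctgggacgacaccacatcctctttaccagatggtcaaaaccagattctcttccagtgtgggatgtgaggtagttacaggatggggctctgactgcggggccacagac
Acta1, higher, chr8:123894726-123895025, minus strand: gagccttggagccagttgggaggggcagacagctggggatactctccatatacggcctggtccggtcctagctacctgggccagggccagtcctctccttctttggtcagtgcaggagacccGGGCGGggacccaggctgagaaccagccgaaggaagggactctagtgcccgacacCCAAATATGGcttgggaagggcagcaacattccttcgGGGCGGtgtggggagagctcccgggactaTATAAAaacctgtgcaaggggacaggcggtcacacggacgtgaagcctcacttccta
The Slitrk5 window held 35 CG dinucleotides and 2 GC boxes, the Lrrc4b window 8 CG dinucleotides and none of these boxes, and the Trim72 window 5 CG dinucleotides and none of these boxes. The window of Acta1, whose product is the actin of adult skeletal muscle, held 12 CG dinucleotides, 1 TATA box, 1 CArG box (the element bound by serum response factor) and 2 GC boxes.

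Nipbl itself checks the labels. In Isl1 heterozygous hearts it ran from 52.0 CPM (lowest) over 61.1 CPM (median) to 72.9 CPM (highest), and in double heterozygous hearts from 28.2 over 37.2 to 51.5 CPM. Every double heterozygous library lay below every Isl1 heterozygous library, so no label of these 18 libraries went against its Nipbl level. The mean fell from 61.5 ± 5.88 CPM (SD, n = 9) to 38.1 ± 7.41 CPM (SD, n = 9). The fitted log2 change was −0.86 (SE 0.12, adjusted p 9.53e-05 by edgeR's quasi-likelihood test with Benjamini-Hochberg adjustment over all genes tested), or 0.552 of the Isl1 heterozygous level. Within sets 2, 5 and 6 the differences of mean log2 CPM were −1.04, −0.77 and −0.68.

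Isl1, of which both groups carry a single working allele, was scarce in these hearts. It ran from 4.38 over 5.80 to 10.4 CPM in Isl1 heterozygous and from 4.80 over 8.47 to 15.1 CPM in double heterozygous libraries. The groups overlapped, with 3 of 9 double heterozygous libraries above every Isl1 heterozygous one. The log2 change of 0.52 (SE 0.20) did not pass the threshold (adjusted p 0.379, edgeR), and the differences within sets 2, 5 and 6 were 0.72, 0.22 and 0.36. In the same fit Isl1 was higher in Nipbl heterozygous than in wild-type hearts by 0.79 (SE 0.19, adjusted p 0.0252, edgeR), and the difference between both changes was −0.27 (SE 0.26, adjusted p 0.999, edgeR). In a fit of the wild-type and Nipbl heterozygous libraries alone, Isl1 was higher by 0.86 (SE 0.17) and did not pass (adjusted p 0.0574, edgeR).

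**Figure D1:**
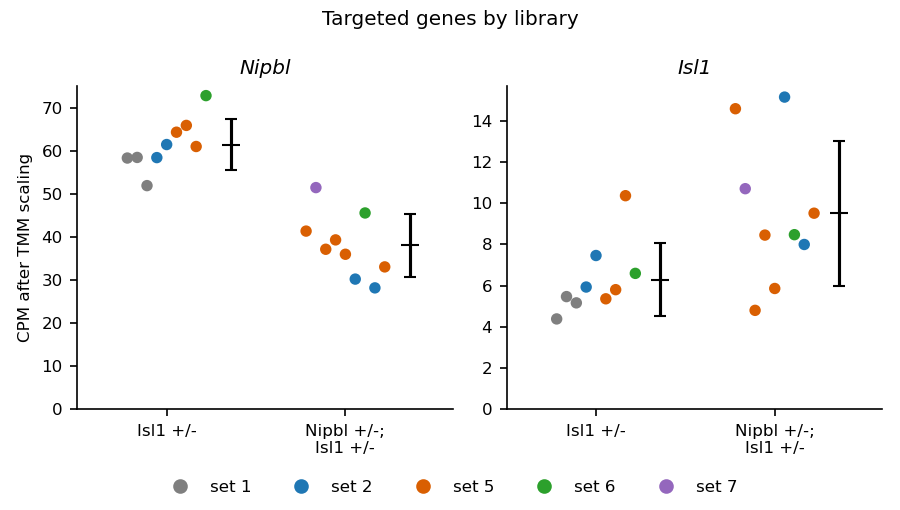
Levels of Nipbl and Isl1 in CPM (y axes, from 0) in each library of both groups; points are libraries coloured by set, bars are the mean ± SD over 9 libraries. The 9 double heterozygous libraries lie at 28.2 to 51.5 CPM of Nipbl, all below the Isl1 heterozygous ones at 52.0 to 72.9 CPM, while the groups overlap for Isl1.

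The other genes of the cohesin list did not follow Nipbl. Of 15 genes for the ring, its loader, its release and acetylation factors and Ctcf, all tested, Nipbl alone passed the threshold, and the median log2 change of the list was −0.03. Mau2, the loading partner, stood at 49.0 ± 2.58 CPM (SD, n = 9) in Isl1 heterozygous and 49.4 ± 3.15 CPM (SD, n = 9) in double heterozygous hearts. The ring subunits Smc1a, Smc3 and Rad21 had log2 changes of −0.05, −0.02 and −0.03. Stag1, a subunit of the ring that exists in alternative forms, had a log2 change of 0.22 (adjusted p 0.492, edgeR).

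Few genes changed, and most changes were modest. Of 15046 genes tested, 144 (0.957%) passed an adjusted p-value of 0.05 (edgeR), 80 higher (0.532%) and 64 lower (0.425%) in double heterozygous hearts. Their median absolute log2 change was 0.69, the range ran from 0.22 to 1.99, and 30 of them changed by more than 1. The 9 and 9 libraries did not overlap in 17 of the 80 genes that rose and in 12 of the 64 that fell. Over all genes tested, 28 genes (0.186%) had every double heterozygous library above the Isl1 heterozygous ones and 20 (0.133%) had every one below. At an unadjusted p-value of 0.05 there were 1127 genes (7.49%), and the median log2 change of all genes was 0.003. The 144 changes had the same direction within sets 2 and 5 in every case, and within sets 2, 5 and 6 in 141, but those libraries also took part in the selection.

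How many genes pass depended on which libraries were present. Without set 5, which holds 5 of the 9 double heterozygous libraries, 12 genes passed, without set 2, 22, and without set 6, 80. Without the library labelled Nipbl heterozygous replicate 2, which belongs to neither group and whose Nipbl level went against its label, 361 passed. All 144 genes kept their direction under these settings. Leaving out 1 library of either group moved the count by over 1.5 times in 8 cases: Isl1 heterozygous replicates 5 (83 genes), 6 (73), 7 (75) and 9 (88), and double heterozygous replicates 3 (74), 4 (83), 6 (87) and 8 (84).

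**Figure D2:**
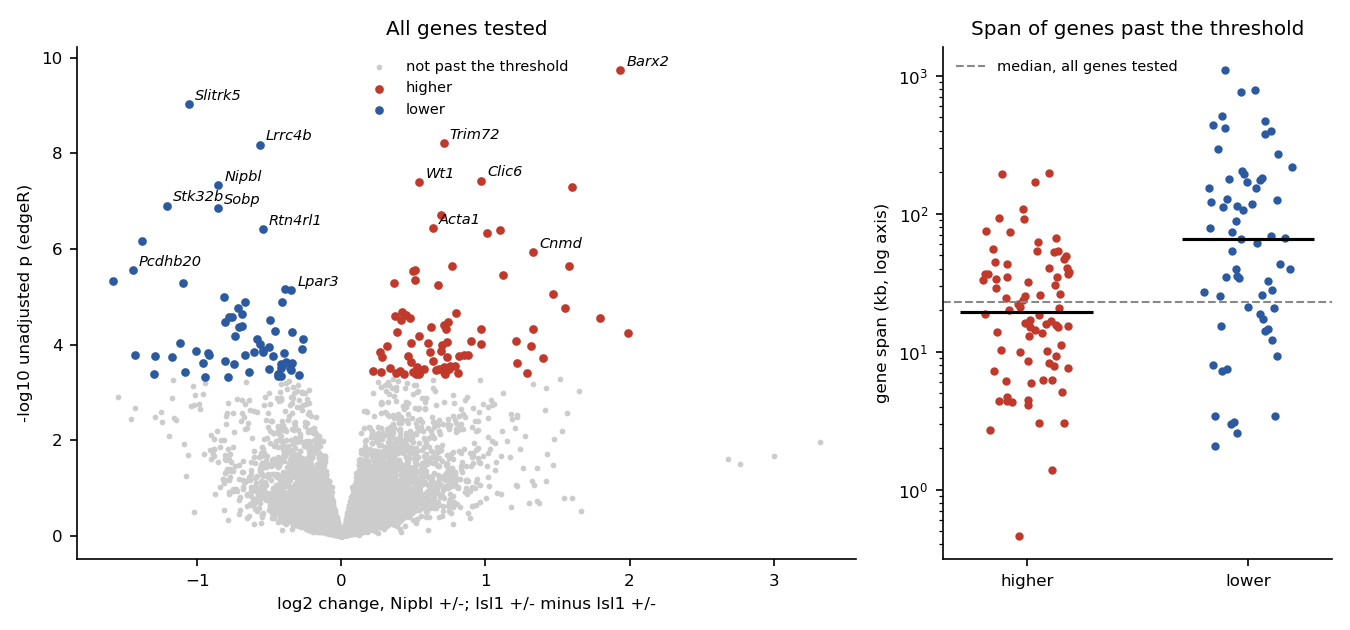
Left, each gene tested as a point, by its log2 change between double heterozygous and Isl1 heterozygous hearts (x axis) and the −log10 of its unadjusted edgeR p-value (y axis); red and blue points are the 80 genes higher and the 64 lower at an adjusted p under 0.05. Right, the genomic span of those genes in kb on a log axis, with black bars at the medians of 19.4 and 66.1 kb and a dashed line at the 23.1 kb median of all genes tested.

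The gene with the smallest p-value was Barx2, a homeobox transcription factor of muscle, cartilage and epithelial development (chr9:31846044-31913285). Isl1 heterozygous libraries held 0.672, 1.605 and 2.33 CPM of it (lowest, median and highest) and double heterozygous libraries 3.41, 5.00 and 7.69 CPM. Each of the 9 double heterozygous libraries lay above all Isl1 heterozygous ones. The level was 3.83 times as high (log2 change 1.94, SE 0.21, adjusted p 2.74e-06, edgeR). Its relative Barx1 had a log2 change of −0.07.

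Trim72 (chr7:128003462-128011393) encodes a muscle protein that seals tears of the cell membrane. It ran from 13.1 over 15.8 to 16.9 CPM in Isl1 heterozygous and from 21.4 over 25.5 to 34.2 CPM in double heterozygous hearts, without overlap. The level was 1.63 times as high (log2 change 0.71, SE 0.09, adjusted p 2.45e-05, edgeR). Acta1 was the most abundant of the named genes, with 475, 593 and 1049 CPM in Isl1 heterozygous and 666, 820 and 1141 CPM in double heterozygous libraries. The groups overlapped widely, and 1 double heterozygous library lay above all Isl1 heterozygous ones. The fitted log2 change was 0.64 (SE 0.10, adjusted p 4.28e-04, edgeR), and without the set term it was 0.42 with an adjusted p of 0.399. Its close relative Actc1, the cardiac actin, stood at means of 9167 and 9107 CPM with a log2 change of 0.05, and how reads that match both genes were counted is not given in the sources used here.

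Of 18 listed sarcomere genes tested, Acta1 alone passed the threshold (edgeR), 14 lay above 0 and the median log2 change was 0.05. With 2 surrogate variables Tcap and Csrp3 passed too. Outside the list, and picked after their values were seen, Actn3, an alpha-actinin of fast muscle (0.65, SE 0.16, adjusted p 0.0418, edgeR), and Mybphl, a relative of myosin-binding protein H (0.34, SE 0.08, adjusted p 0.0404, edgeR), rose, and Myoz1, a Z-disc protein of fast muscle, fell (−0.42, SE 0.10, adjusted p 0.0363, edgeR). Of 13 genes of calcium handling and membrane repair, Trim72 and Cacnb3, a regulatory subunit of voltage-gated calcium channels, rose (Cacnb3 0.41, SE 0.10, adjusted p 0.0426, edgeR), and the median was 0.03. Among all genes tested, 0.532% rose. Cav3 and Dysf, which act with Trim72 at the muscle membrane, had log2 changes of 0.02 and −0.10.

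Wt1, the zinc-finger factor that marks the epicardium, the sheet of cells that covers the heart, ran from 36.2 over 48.1 to 57.5 CPM in Isl1 heterozygous and from 57.7 over 75.3 to 92.6 CPM in double heterozygous hearts (chr2:105126529-105173614). The ranges abutted without overlap. The level was 1.45 times as high (log2 change 0.54, SE 0.08, adjusted p 9.53e-05, edgeR). Clic6, a chloride channel family member, ran from 3.75 over 5.02 to 6.34 CPM and from 6.22 over 10.6 to 13.6 CPM, with 8 of 9 double heterozygous libraries above all Isl1 heterozygous ones. Its log2 change was 0.97 (SE 0.14, adjusted p 9.53e-05, edgeR). Both genes belong to a list of epicardial and mesothelial markers, described next.

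Of 17 epicardial and mesothelial genes tested, 16 lay above 0 and 3 rose (Wt1, Clic6 and the keratin Krt7), with a median log2 change of 0.39 against 0.003 over all genes. At an unadjusted p-value of 0.05, 12 were higher and 1, Lrrn2, was lower (−0.44). Among all genes tested, 0.957% passed the threshold and 7.49% had an unadjusted p-value under 0.05, in either direction (edgeR). The summed level of the list ran from 999 over 1050 to 1324 CPM in Isl1 heterozygous and from 1387 over 1504 to 2077 CPM in double heterozygous hearts. The groups did not overlap, and within set 2 the 2 double heterozygous libraries (1393 and 1388 CPM) also lay above the 2 Isl1 heterozygous ones (1008 and 1038 CPM). Double heterozygous replicates 3 and 4 had the highest sums (2077 and 1645 CPM). They also had their group's highest summed hypoxia and glycolysis levels (17954 and 14064 CPM). Isl1 heterozygous replicates 2 and 3, of set 1, which held no double heterozygous library, had hypoxia and glycolysis sums of 14153 and 14310 CPM. Their epicardial sums were 1029 and 999 CPM. Within set 5 the hypoxia and glycolysis sums were 11535 to 17954 CPM in double heterozygous and 10726 to 11219 CPM in Isl1 heterozygous libraries. Within set 2 they were 10806 and 11316 against 9602 and 10102 CPM, and within set 6 9174 against 9773 CPM. The relation between the epicardial and the hypoxia and glycolysis levels was not tested. In these whole hearts, more cells of a type and more RNA per cell cannot be told apart.

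The keratins of simple epithelia, part of the same list, had some of its larger changes. Krt7 ran from 22.1 over 44.0 to 48.9 CPM in Isl1 heterozygous and from 38.02 over 72.2 to 108 CPM in double heterozygous hearts, with 7 of 9 libraries above all Isl1 heterozygous ones. Its log2 change was 0.68 (SE 0.17, adjusted p 0.0404, edgeR). Krt19 (0.95), Krt18 (0.65) and Krt8 (0.52) did not pass (adjusted p 0.186, 0.0799 and 0.0799, edgeR), nor did the uroplakins Upk1b (0.39, adjusted p 0.0568) and Upk3b (0.26, adjusted p 0.613). Double heterozygous replicate 3 held 444 CPM of Krt19, against a median of 119 CPM in its group. Tbx18 and Tcf21, transcription factors of the epicardium, had log2 changes of 0.27 and 0.31 and did not pass (adjusted p 0.264 and 0.757, edgeR). With DESeq2 Krt18, Krt8 and Upk1b passed as well, as they did in the 18 libraries alone, and with the replicate block Upk1b and Tbx18 passed.

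The number of epicardial genes past the threshold, 3 of 17, moved with the method and with the libraries used, while the list's median stayed between 0.35 and 0.50 in the settings run. With DESeq2 6 passed, in the 18 libraries alone 6 and in those of sets 2, 5 and 6 alone 7. Without the set term 5 passed, with the replicate block 7 and with 2 surrogate variables 8. The count over all genes moved too, to 234, 268, 229, 123, 151 and 491 in these settings, against 144 in the fit of all libraries. Without set 5 none of the 17 passed (12 over all genes) and the median was 0.36. Without Isl1 heterozygous replicate 1, 5 passed (133 over all genes). Without the library labelled Nipbl heterozygous replicate 2, 9 passed (361 over all genes), among which Lrrn2 was lower. Without double heterozygous replicate 3, 2 passed (74 over all genes) and the median was 0.38. Of a list of 12 foregut and pharynx markers, 8 were too low to test. All 4 tested lay above 0 (0.41 to 0.89, median 0.58, against 0.39 for the epicardial list), and none passed (edgeR). Sox17, which endothelium also expresses, was the one with an unadjusted p under 0.05 (0.45, SE 0.16, adjusted p 0.272). The list's summed level was 5.12 to 12.4 CPM in Isl1 heterozygous and 6.52 to 29.2 CPM in double heterozygous libraries. The 2 highest values, 29.2 and 18.6 CPM, were those of double heterozygous replicates 7 and 6, whose summed epicardial levels were 1387 and 1393 CPM. The sex-linked genes varied widely between libraries: the log2 change of Xist was 0.77 with an SE of 1.38 and did not pass (edgeR). The Y-linked Ddx3y, Uty, Kdm5d and Eif2s3y lay between 0.12 and 0.60 with none passing. With Xist level as a covariate the same 3 epicardial genes, Wt1, Clic6 and Krt7, passed. The part of foregut tissue in the epicardial and keratin changes was not tested.

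**Figure D3:**
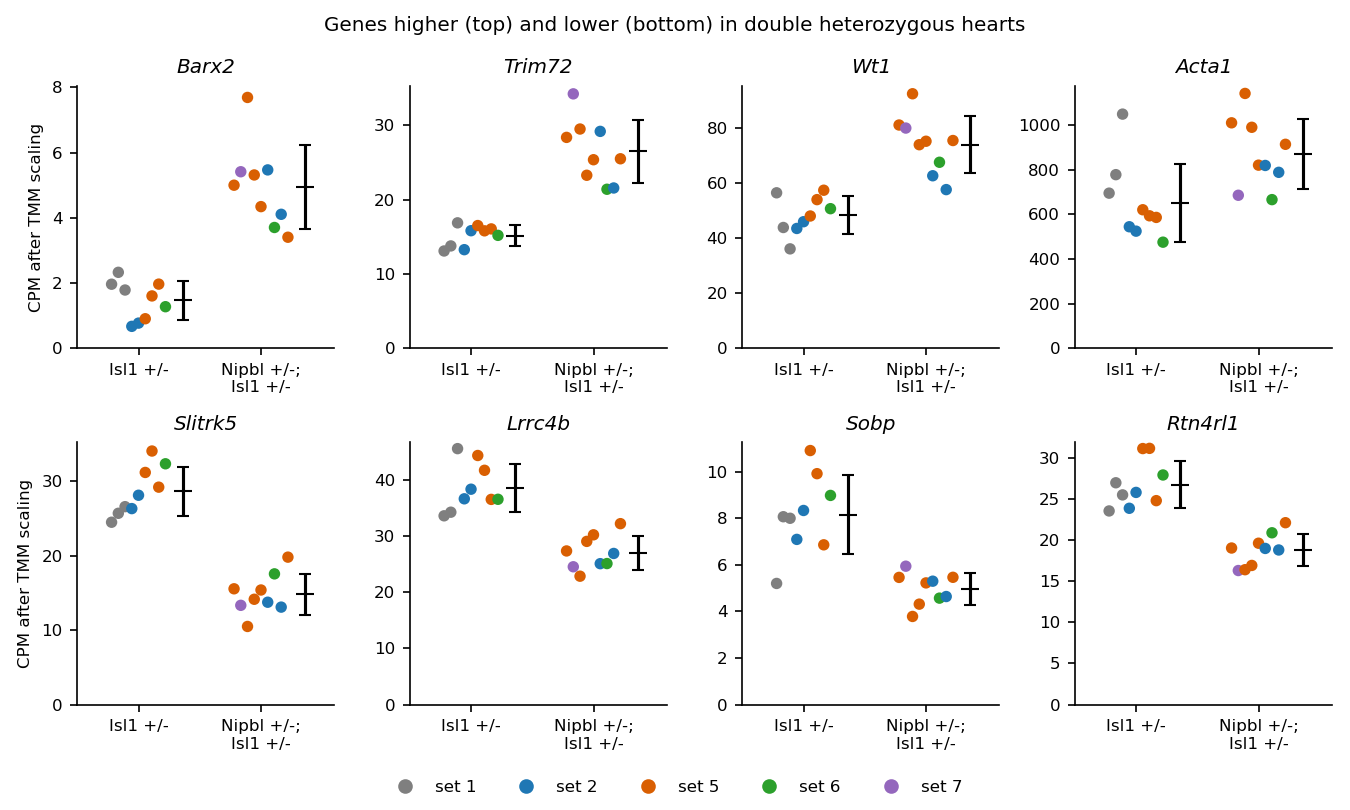
Levels in CPM (y axes, from 0) of 4 genes that rose (top) and 4 that fell (bottom); points are libraries coloured by set, bars are the mean ± SD over 9 libraries. In all panels but those of Acta1 and Sobp the groups do not overlap.

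Further genes that rose differ widely in what they do. Rarres1, a retinoid-induced gene, ran from 1.16 over 1.64 to 2.20 CPM in Isl1 heterozygous and from 2.59 over 3.71 to 5.64 CPM in double heterozygous hearts (log2 change 1.10, SE 0.18). Cnmd, which encodes chondromodulin, an inhibitor of vessel growth in cartilage and heart valves, ran from 1.02 over 2.09 to 3.44 CPM and from 4.28 over 5.52 to 10.8 CPM (1.33, SE 0.22). Chit1, a secreted chitinase, ran from 2.49 over 3.44 to 4.62 CPM and from 5.29 over 6.40 to 9.50 CPM (1.12, SE 0.20). Sh3tc2, a protein of recycling endosomes, ran from 19.5 over 22.4 to 27.4 CPM and from 28.5 over 31.5 to 42.2 CPM (0.51, SE 0.09). For these 4 genes no double heterozygous library fell within the Isl1 heterozygous range, and their adjusted p-values ran from 4.28e-04 to 0.00278 (edgeR).

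The groups overlapped in other genes that rose. Crlf2, the receptor chain for thymic stromal lymphopoietin, changed by 0.51 (SE 0.09) and Hid1, which acts in secretory granule formation, by 0.50 (SE 0.09). Pdpn, the mucin-like membrane protein podoplanin of mesothelium and lymphatic vessels, ran from 19.6 over 21.7 to 26.4 CPM and from 26.3 over 27.7 to 34.2 CPM (0.36, SE 0.07). The zinc-finger gene Zfp979 (0.69, SE 0.11) and the class I histocompatibility gene H2-Q2 (0.77, SE 0.14) belong to families of near-identical copies among which reads can be split, so their values are uncertain. Adjusted p-values of these 5 genes ran from 2.68e-04 to 0.00291 (edgeR).

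Slitrk5, a membrane protein with leucine-rich repeats that organises synapses, was the gene that fell with the smallest p-value (chr14:111675115-111683144). It ran from 24.5 over 28.1 to 34.0 CPM in Isl1 heterozygous and from 10.48 over 14.1 to 19.8 CPM in double heterozygous hearts. All 9 double heterozygous libraries lay below the Isl1 heterozygous range. The level was 0.480 of that in Isl1 heterozygous hearts (log2 change −1.06, SE 0.13, adjusted p 7.08e-06, edgeR). Lrrc4b, a synaptic adhesion protein with the same kind of repeats (chr7:44442487-44463351), ran from 33.7 over 36.7 to 45.7 CPM and from 22.9 over 27.0 to 32.3 CPM, also without overlap. Its log2 change was −0.57 (SE 0.07, adjusted p 2.45e-05, edgeR).

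A list of 21 adhesion proteins with leucine-rich repeats was read for other members like these. Of the 13 tested, Slitrk5, Lrrc4b and Lrrtm4 fell and none rose, with a median log2 change of −0.15. Among all genes tested, 0.425% fell and 0.532% rose. Lrrtm4, a scarce transcript, ran from 1.13 over 1.30 to 2.37 CPM in Isl1 heterozygous and from 0.250 over 0.641 to 0.836 CPM in double heterozygous hearts (−1.38, SE 0.23, adjusted p 6.44e-04, edgeR), without overlap. Flrt3 (−0.28, adjusted p 0.0812) and Slitrk4 (−0.44, adjusted p 0.218) did not pass (edgeR), and Flrt2 (0.17) and Lrfn4 (0.01), the most abundant of the rest, were on the other side of 0. With DESeq2 Flrt3 was called lower as well. The list was drawn up with the Slitrk5 and Lrrc4b results known.

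Sobp, a nuclear protein that binds sine oculis-type homeobox factors (chr10:43002488-43183139), ran from 5.20 over 8.06 to 10.9 CPM in Isl1 heterozygous and from 3.78 over 5.22 to 5.94 CPM in double heterozygous hearts. The groups overlapped, with 4 of 9 double heterozygous libraries below all Isl1 heterozygous ones. Its log2 change was −0.86 (SE 0.13, adjusted p 2.12e-04, edgeR). Of 10 tested genes for these factors and their Eya and Dach partners, Sobp alone passed, and the median was 0.01. It was also the only one of 20 second heart field genes to pass, where the median was 0.06 and 11 lay above 0.

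Rtn4rl1, a relative of the Nogo receptor, ran from 23.5 over 25.8 to 31.1 CPM in Isl1 heterozygous hearts. In double heterozygous hearts it ran from 16.3 over 18.96 to 22.1 CPM, without overlap (−0.55, SE 0.09, adjusted p 4.28e-04, edgeR). Klf14, a single-exon Krüppel-like factor gene, ran from 1.99 over 2.78 to 3.76 CPM and from 0.867 over 1.31 to 1.88 CPM, again without overlap (−1.10, SE 0.20, adjusted p 0.00291, edgeR). Lpar3, a receptor for lysophosphatidic acid, ran from 43.1 over 47.1 to 54.7 CPM and from 28.2 over 39.8 to 42.0 CPM, with no overlap at a smaller change (−0.35, SE 0.07, adjusted p 0.00359, edgeR). For Stk32b, a serine/threonine kinase, 8 of 9 double heterozygous libraries lay below all Isl1 heterozygous ones (−1.21, SE 0.18, adjusted p 2.05e-04, edgeR).

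Another 6 named genes fell. Scube2, a secreted protein that helps release Hedgehog ligands, changed by −0.82 (SE 0.16) with 3 of 9 double heterozygous libraries below all Isl1 heterozygous ones. Csgalnact1, an enzyme that starts chondroitin sulfate chains, changed by −0.71 (SE 0.14), also with 3 of 9. Sox3, a transcription factor of neural progenitors, changed by −0.69 (SE 0.14), Diras2, a small GTPase, by −0.67 (SE 0.13), Eepd1 by −0.41 (SE 0.08) and Klhdc10 by −0.39 (SE 0.07). Their adjusted p-values ran from 0.00354 to 0.00882 (edgeR). Without the set term Scube2 (−0.53), Csgalnact1 (−0.49) and Klhdc10 (−0.33) did not pass. Sox3 was the only one of 10 tested neural crest and neuron genes to pass, and the list's median was −0.06.

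The beta protocadherins, cell surface proteins encoded by a cluster of single-exon genes on chromosome 18, stood at low levels. Of 22 genes in the list 11 were tested, all 11 lay below 0, with a median log2 change of −0.80, and 2 fell: Pcdhb20 (−1.45, SE 0.26, adjusted p 0.00193) and Pcdhb22 (−1.12, SE 0.25, adjusted p 0.0203, edgeR). At an unadjusted p-value of 0.05, 8 of 11 were lower. Among all genes tested, 0.425% fell past the threshold, and 7.49% had an unadjusted p-value under 0.05 in either direction (edgeR). The summed level of the 22 listed genes ran from 4.93 over 6.94 to 9.95 CPM in Isl1 heterozygous hearts. In double heterozygous hearts it ran from 2.50 over 4.01 to 6.21 CPM, and the groups overlapped. These genes are near-identical in part, so single members are uncertain and their changes are not independent of each other. Neither of the 2 genes passed when set 2 or set 5 was left out, where 22 and 12 passed over all genes. Of the 2 genes, 1 passed without Isl1 heterozygous replicates 5 or 6 or double heterozygous replicates 3, 6 or 8. Over all genes, 73 to 87 passed without 1 of these libraries.

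**Figure D4:**
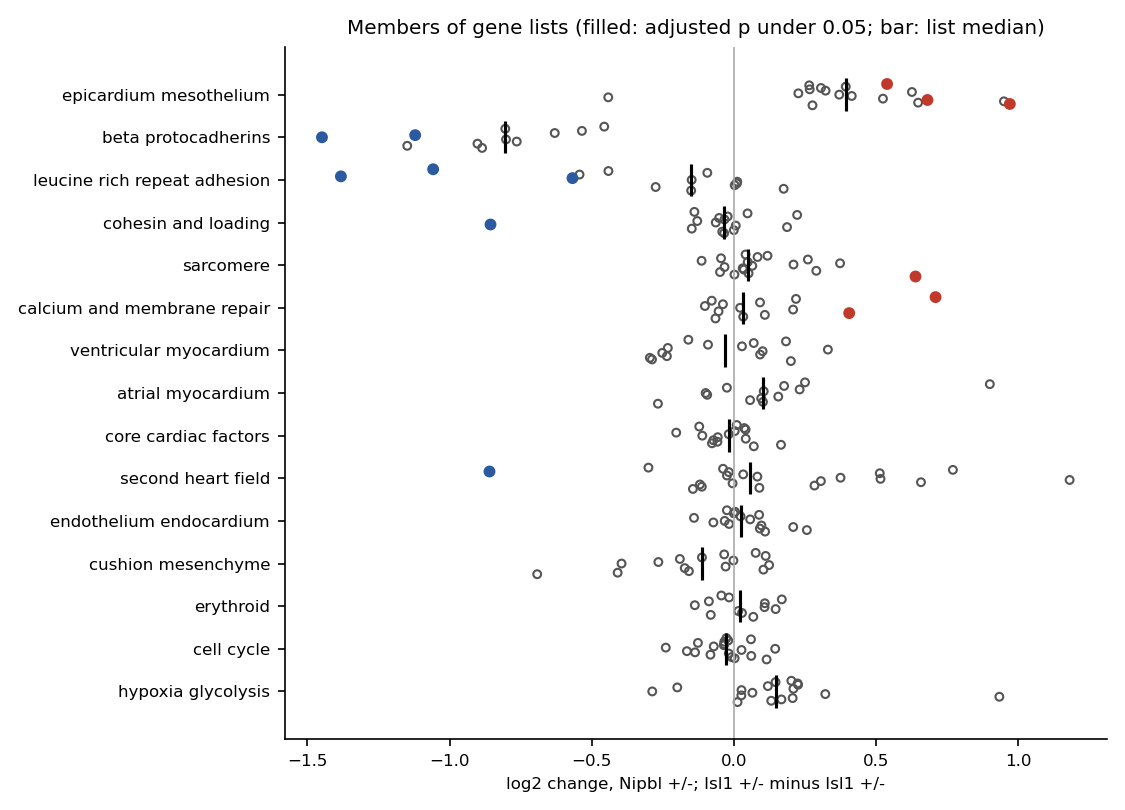
Log2 changes between double heterozygous and Isl1 heterozygous hearts (x axis) of the tested members of 15 gene lists (rows); filled points passed an adjusted p of 0.05 and vertical bars are list medians. The epicardial list has its median at 0.39 and the beta protocadherins at −0.80, while the other 13 medians shown lie between −0.15 and 0.15.

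The medians of 4 lists left out of the plot of gene lists, liver (0.20), sex-linked (0.41), Bar and Nk homeobox (0.56) and foregut (0.58), lay above 0.15, over 7, 5, 4 and 4 tested genes. In the plot, the epicardial list alone had a median above 0.15. The genes that define the heart were present. Apart from the sarcomere and second heart field lists, where Acta1 rose and Sobp fell, the following heart lists gave no call in the edgeR fit of all libraries. None of 15 core cardiac transcription factors passed (edgeR), with Nkx2-5 at a log2 change of 0.00, Gata4 at 0.07 and Tbx5 at 0.01. None of 14 ventricular genes passed either, among them Mycn (−0.23, adjusted p 0.233), Irx4 (−0.25, adjusted p 0.698), Hey2 (−0.24, adjusted p 0.622) and the potassium channel subunit Kcne1 (0.33, adjusted p 0.0650, edgeR). None of 13 atrial genes passed, with Sln, a regulator of the calcium pump, at 0.90 (SE 0.41, adjusted p 0.556, edgeR). Endothelial and endocardial genes (0 of 15, median 0.02), cushion mesenchyme genes (0 of 15, median −0.11) and genes of the atrioventricular canal, outflow tract and conduction system (0 of 12, median −0.06) were similar. In the cushion list, Col1a1 had the largest change (−0.69, SE 0.20, adjusted p 0.102, edgeR). Other settings gave calls in these lists. Col1a1 was lower past the threshold with DESeq2, with 2 surrogate variables and in both fits of these groups alone, and Kcne1 was higher in 7 settings, DESeq2 among them. Mycn and Hey2 were lower in the 18 libraries alone, and Rspo3 was lower with the replicate block.

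Signalling and state lists gave no member past the threshold in the edgeR fit of all libraries. These were Notch (16 tested), BMP and TGF-beta (20), FGF, WNT and Hedgehog (22), retinoic acid (14), cell cycle (19), the unfolded protein and integrated stress responses (15) and immediate early genes (13). Of 17 genes of hypoxia and glycolysis 15 lay above 0, the median was 0.15 and none passed. In 1 alternative setting each, Hey2 and Wnt5a (the 18 libraries alone), Lef1 (replicate block) and Cyp26b1 (2 surrogate variables) were called lower. Wnt2b (sets 2, 5 and 6 alone), Chac1 and Car9 (both without the library labelled Nipbl heterozygous replicate 2) were called higher. The summed level of the cell cycle list ran from 6775 over 6936 to 7694 CPM in Isl1 heterozygous and from 5948 over 6284 to 7319 CPM in double heterozygous hearts, with 8 of 9 double heterozygous libraries below all 9 Isl1 heterozygous ones and replicate 8, at 7319 CPM, within their range. The cell cycle inhibitor Cdkn1c made up 3699 ± 518 and 2940 ± 457 CPM of these sums (SD, n = 9 each). Its log2 change was −0.24 (SE 0.14, adjusted p 0.817, edgeR), and the differences within sets 2, 5 and 6 were 0.13, −0.33 and −0.37. None of 12 tested red blood cell genes passed, with a median of 0.02. With the mean log2 CPM of the tested red blood cell genes as a covariate 173 genes passed, all 144 among them.

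Some genes past the threshold lay outside the naming rule, which asked for a higher mean level, and were picked after their values were seen. Among scarce transcripts that rose were the keratins Krt14 (0.663 ± 0.354 to 1.94 ± 0.927 CPM, SD, n = 9 each; log2 change 1.55) and Krt23 (log2 change 1.99). Among scarce transcripts that fell were Acan, the cartilage proteoglycan aggrecan (1.71 ± 0.588 to 0.627 ± 0.231 CPM, SD, n = 9 each; log2 change −1.59), and Lum, the collagen-binding proteoglycan lumican (−1.43). Several genes of neurons also fell, among them Dcc, the netrin receptor (−1.30), Snap25, a vesicle fusion protein (−0.93), and Gabra4, a GABA receptor subunit (−0.76). No list held these neuronal genes, and no count of such genes was made.

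Genes that fell were, in the median, longer than genes that rose. The median genomic span (RefSeq, GRCm38.p6) was 66.1 kb for the 64 genes that fell, 19.4 kb for the 80 that rose and 23.1 kb for 15035 tested genes with a span. Of the genes that fell, 27 (42.2%) spanned more than 100 kb, among them Nipbl itself, Sobp, Stk32b and Lrrtm4, against 4 (5.0%) of those that rose and 13.8% of all tested. Slitrk5 (8.03 kb) and Klf14 (2.97 kb) are exceptions. When the tested genes were split into 5 equal bins by span, the bin of the longest held 30 genes that fell and 8 that rose, and the shortest 7 and 17.

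Over all genes the relation to span was weaker and had no constant direction. The median log2 change went from 0.03 in the bin of the shortest genes to −0.03 in the longest. Within set 2 the corresponding medians were 0.21 and −0.16, within set 5 −0.03 and 0.01, and within set 6 −0.07 and 0.06. Without set 5 the 5 genes that fell had a median span of 20.9 kb and the 7 that rose 23.7 kb. Without the set term the medians were 34.1 and 26.7 kb. With double heterozygous replicate 8 left out they were 53.7 kb for the 35 genes that fell and 26.1 kb for the 49 that rose. The cause of the difference in span was not tested.

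Promoters differed in the same 2 groups. Genes that fell had a median of 21 CG dinucleotides in the 300 bases around a start (45 promoters of 39 genes), genes that rose 8 (79 promoters of 60 genes), and the promoters of tested genes 19. The TATA box letters were present in 12.7% of promoters of genes that rose and 4.44% of those that fell, against 7.58% of promoters of tested genes. The GC box letters were present in 53.2% and 68.9%, against 60.6%. The CArG box was present in 2 promoters of genes that rose, that of Acta1 among them, and in none of genes that fell (1.34% of promoters of tested genes). The core motif of CTCF, the factor that halts cohesin at loop anchors, was present in 3 promoters of genes that rose and in none of genes that fell (0.698%). Levels differed too: the median of the mean log2 CPM was 2.29 for genes that rose, 3.05 for genes that fell and 4.46 for all tested.

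Few of the changed genes were neighbours. Taking tested genes in genomic order, 3 adjacent pairs both passed, each with a shared direction. These were H2-Q1 and H2-Q2 on chromosome 17 (14.2 kb apart), Pcdhb20 and Pcdhb22 on chromosome 18 (10.7 kb) and Gm13212 and Zfp980 on chromosome 4 (45.4 kb). H2-Q genes, beta protocadherins and zinc-finger genes such as Zfp980 are families of similar copies, and the part of reads shared between copies was not tested.

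Whether Nipbl loss acts differently with 1 or with both working Isl1 alleles was asked by the difference between both Nipbl effects, tested in the fit of all 37 libraries. None of 15046 genes (0%) passed (smallest adjusted p 0.999, edgeR), and 411 (2.73%) had an unadjusted p-value under 0.05. With DESeq2 none passed as well, and 435 had an unadjusted p-value under 0.05. With 2 surrogate variables in the edgeR fit 1 gene, Pelo, passed. Of the 144 genes, 20 were among the 411. No gene is thus shown to respond to Nipbl loss on the Isl1 heterozygous background only.

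The 28 named genes that passed, 14 in each direction with Nipbl among them, all had the same direction in hearts with both Isl1 alleles working, and 25 of them passed there in the same fit. Without the library labelled Nipbl heterozygous replicate 2, 27 passed. The share of all genes that passed in that comparison of the same fit was not counted, and both comparisons share each gene's estimate of the spread. The counts of 25 and 27 are therefore not read as a result. In the wild-type and Nipbl heterozygous libraries alone, 12 of the 28 passed, against 0.144% of all genes. Without the library labelled Nipbl heterozygous replicate 2, 19 of the 28 passed in these libraries, against 0.601% of all genes. The genes were chosen by their p-value on the Isl1 heterozygous background, which favours larger changes there, so the sizes of both changes are given as a description. Barx2 changed by 1.94 with 1 Isl1 allele and by 1.25 (SE 0.20) with both, a difference of 0.69 (SE 0.27, unadjusted p 0.0166, adjusted p 0.999, edgeR). Acta1 changed by 0.64 and by 0.25 (SE 0.09, adjusted p 0.192), a difference of 0.39 (SE 0.13, unadjusted p 0.00528, adjusted p 0.999, edgeR). Stk32b (difference −0.55) and Wt1 (0.23) also had unadjusted p-values under 0.05. Sox3 and Klf14 changed less with 1 Isl1 allele (−0.69 and −1.10) than with both (−0.97 and −1.37), and Slitrk5 changed by −1.06 and −0.91, without a difference past the threshold. Rtn4rl1 had a difference of −0.20 (SE 0.11), and of −0.25 (SE 0.10, unadjusted p 0.0166, adjusted p 1, edgeR) without the library labelled Nipbl heterozygous replicate 2.

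Separate fits of both backgrounds share no library. The 18 libraries alone gave 268 genes (1.84% of 14539 tested), and the 19 wild-type and Nipbl heterozygous libraries alone gave 21 (0.144% of 14592 tested), the library labelled Nipbl heterozygous replicate 2 included. Of the 267 genes past the threshold in the former and tested in the latter, 255 (95.5%) had the same direction there and 16 passed in both. Over the 14447 genes tested in both fits, 65.3% had the same direction. Of the 28 named genes, 28 had the same direction in the 19-library fit and 12 passed. Without the library labelled Nipbl heterozygous replicate 2 that fit gave 88 genes (0.601% of 14646 tested), and 49 of the 267 passed in both, 258 (96.6%) had the same direction, and 19 of the 28 named genes passed.

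**Figure D5:**
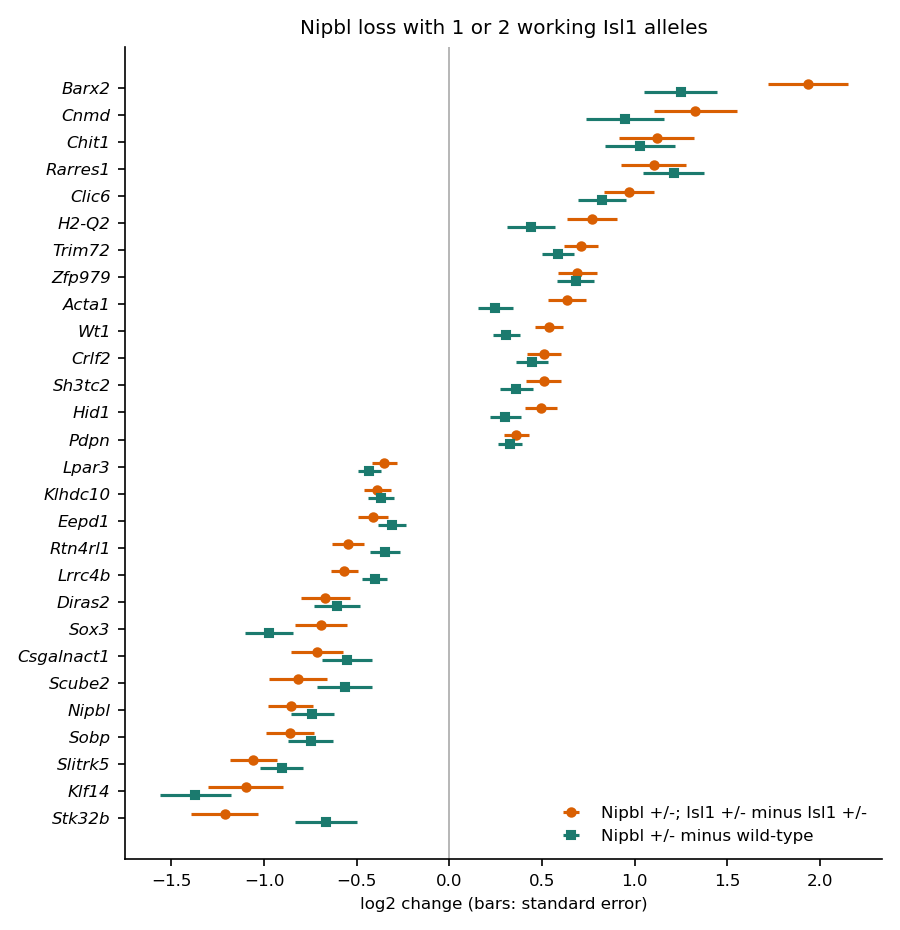
Log2 changes with standard errors (x axis) of the 28 named genes on the Isl1 heterozygous background (orange circles, double heterozygous minus Isl1 heterozygous) and with both Isl1 alleles working (green squares, Nipbl heterozygous minus wild-type), from 1 fit of 37 libraries. Both changes lie on the same side of 0 for all 28 genes, which were chosen by their p-value in the orange comparison.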

How the data were processed

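The hearts were profiled by paired-end RNA sequencing, per the labels' protocols from total RNA (Monarch kit) with NEBNext Ultra II libraries. The deposited table holds unnormalized counts by gene symbol and library. STAR, featureCounts, GRCm38 and mm10 are named in the submitters' processing notes, while versions, annotation and strand setting are not given in the sources used here, so reads of overlapping, antisense or near-identical genes cannot be told apart.

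Of 25239 gene rows, 4273 were 0 in every library. Genes were kept by filterByExpr by genotype (minimum count 10, minimum total 15), counts were scaled by TMM, and genotype and set number were fitted with the quasi-likelihood method of edgeR 4.0.16 (limma 3.58.1, R 4.3.3) in all 37 libraries, which share 1 estimate of the spread. Tests were two-sided, with Benjamini-Hochberg adjustment over the 15046 genes and a threshold of 0.05. CPM are after TMM scaling, and within-set differences and components used log2 CPM with a prior count of 2. Changes on both Isl1 backgrounds are set side by side from this 1 fit, with separate fits of 18 and 19 libraries beside it. No 2 libraries of a group agreed within sampling noise (smallest chi-square per degree of freedom 7.46 over 72 pairs). Counting noise and the spread between embryos were not separated.

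Named genes are Nipbl, Isl1 and in each direction 14 genes, taken in order of p-value from those that passed, with a log2 CPM of at least 1 on average, not sex-linked, and with the same direction within sets 2, 5 and 6. Gene list members are named where their list is described. The comparison, lists and alternatives were chosen with earlier results of these data known, so lists carry counts and medians and no test. Spans and promoters are from RefSeq GRCm38.p6. Counts were simulated once from the real means and library sizes and the fitted set effects and spread (15046 genes). There the double heterozygous against Isl1 heterozygous comparison recovered 41.8%, 77.6% and 97% of genes changed by 0.5, 1 and 2 on the log2 scale, with 7 false among 151 calls. Alternatives were DESeq2 1.42.0, its size factors in edgeR, other filters, no set term, the title number as a block, 2 surrogate variables (sva 3.50.0), Xist or red blood cell level as a covariate, fewer libraries, and each library or set left out. Tables and plots used Python 3.11.15, pandas 2.3.3 and matplotlib 3.10.9.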

Additional observations from a re-analysis of the deposited data

Results flagged for a closer look

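In 4 of 58 sets of 9 libraries (29 genes, both groups), 1 library stood apart from the other 8 by Dixon's criterion on log2 CPM, against about 1 in 20 by chance. Double heterozygous replicate 8 was the lowest of its group for 3 genes: Hid1 at 14.8 CPM (next library 17.6 CPM), Lpar3 at 28.2 CPM (next 36.1 CPM) and Diras2 at 3.88 CPM (next 5.58 CPM). It is also the library at the end of the first principal component. Without it, the log2 changes of Lpar3 and Diras2 were −0.32 and −0.59, and both genes still passed. Isl1 heterozygous replicate 4 was the lowest of its group for Stk32b at 1.68 CPM (next 2.34 CPM). No gene's Nipbl effect differed between the Isl1 backgrounds past the threshold.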

How the results depend on the processing

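Against 144 genes, DESeq2 gave 234, the 18 libraries of both groups alone 268, their libraries of sets 2, 5 and 6 alone 229, and 2 surrogate variables 491. Without the library labelled Nipbl heterozygous replicate 2 the count was 361, and without set 2, 5 or 6 it was 22, 12 or 80. Leaving out each library of both groups in turn gave 73 to 142. The cause of these shifts was not tested. Other settings gave 114 to 173, and the 144 genes kept their direction in every setting that tested them. Without the set term 123 passed, 69.1% of them higher against 55.6%. The title numbers pair no embryos in the labels, and same-numbered libraries did not deviate together (r from −0.27 to 0.09 over 9 pairs, none best with its own number). With this number as a replicate block in place of the set, 151 passed, 99 of the 144 among them, and 70.9% were higher. Of 27 named genes other than Nipbl, 23 lost the threshold without set 5 (Barx2, Cnmd, Slitrk5 and Lrrc4b passed), 14 without set 2, 4 without the set term or with the block, and 1 without set 6 (Sox3) or in the libraries of sets 2, 5 and 6 alone (Eepd1). None changed sign. Nipbl passed in every setting, at −0.89 to −0.83 with 1 library left out. The difference between backgrounds gave 0 genes in every setting that could test it except 2 surrogate variables, where 1 gene, Pelo, passed. The epicardial and beta protocadherin lists were followed through these settings as a choice made after seeing the data, and their medians stayed at 0.35 to 0.50 and at −1.01 to −0.69. No beta protocadherin was tested when at least 10 counts in every library were asked for. In the simulated counts 41.8% of genes changed by 0.5 on the log2 scale were recovered, so changes of that size can be missed. The smallest absolute log2 change among the 144 genes was 0.22.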
